A study of Mus musculus with 12 samples.

Results

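Conventional T cells of mice lacking Coro1a (labelled Coro1-/-, here KO) were compared with those of wild-type (WT) mice by messenger RNA sequencing, using 6 of the 12 libraries of the series, 3 of each genotype. The other 6 libraries are regulatory T cells and enter only as an alternative fit. The labels give no strain, age, tissue of origin, sorting gate or design of the deletion, and state no treatment. Whether the replicates come from different animals is not stated either, and the p-values then speak only of variation among the 6 libraries. Of 45706 genes in the table, 14320 passed the filter on low counts and were tested, and all of them belong to the comparison.

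Coronin 1, the product of Coro1a, is a WD-repeat protein of white blood cells that binds filamentous actin and the Arp2/3 complex and has been tied to calcium and cyclic AMP signalling. Animals and people without it have few naive T cells in the periphery, while T cells of activated phenotype are relatively spared. Naive T cells carry homing receptors for lymph nodes and depend on receptor contact and interleukin 7 for their survival.

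Levels are given as CPM, reads of a gene normalised to all reads in genes of its library, scaled with TMM factors, which assume that most genes do not change. A gene is said to have risen, fallen or been called where the adjusted p (Benjamini-Hochberg, edgeR's quasi-likelihood test) was under 0.05. Coro1a itself (ENSMUSG00000030707, GRCm38 chromosome 7, 126699773 to 126707787, minus strand) stood at 2093, 2355 and 2402 CPM in WT replicates 1 to 3 and at 46.2, 48.7 and 47.0 CPM in KO replicates. The groups were far apart, and the fold change was -5.59 on the log2 scale (SE 0.08, adjusted p = 9.41e-08). Where on the transcript the remaining KO reads map is not shown by counts per gene.

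The 6 libraries were alike in depth, at 29865336 to 33345218 counts in genes. They expressed the helper T cell gene Cd4, at 1170.1 ± 34.9 CPM in WT against 753 ± 66.2 CPM in KO (SD, n = 3). Cd8a was scarce, at 0.174 ± 0.105 CPM for the WT group and 0.626 ± 0.214 CPM for the KO group. Cd8b1, the other CD8 chain, was more abundant. Its WT libraries stood at 18.7, 20.7 and 21.8 CPM, and its KO libraries at 10.3, 11.1 and 10.1 CPM. Its log2 fold change was -0.96, opposite in sign to the 1.82 of Cd8a. The call of Cd8a was lost without WT replicate 1 or WT replicate 3, at 1.66 and 1.52 (adjusted p = 0.0560 and 0.0574). The CD8 T cell list summed to 52.2 to 58.4 CPM over WT libraries, against 141, 115 and 186 CPM over KO replicates 1 to 3. Of its 6 tested genes 4 rose and 1 fell. Replicate 3 of each genotype held Y-linked reads and next to no Xist, the transcript of the inactive X chromosome, while replicates 1 and 2 of each were the reverse, so the sexes were balanced between the genotypes. KO libraries held less RNA of general T cell genes. The summed level of 6 of them, Lat, Cd3d, Cd3e, Cd3g, Cd5 and Cd6, was 3018, 3132 and 3356 CPM in WT compared with 2199, 2385 and 2079 CPM in KO. Fewer cells of a type and less RNA per cell cannot be told apart in such bulk samples. Directions below are therefore set beside a fit in which libraries were scaled to these 6 genes, called T cell gene scaling here. It moved the median log2 fold change of all genes from -0.01 to 0.50, a shift of 0.51. It can thus undo falls but hardly rises, and is no check of a rise.

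A majority of the genes tested differed between the genotypes. There were 7528 called (52.6%), of which 4084 (28.5%) were higher and 3444 (24.1%) lower in KO. The changes were lopsided in size. At least 2-fold higher in KO were 2381 genes (16.6%), against 138 (0.964%) at least 2-fold lower, and 96.0% of the genes called lower were lower by less than 2-fold. Replicates lay close together in most genes, with a common biological coefficient of variation of 0.108 for both groups. The KO libraries differed widely in some of the genes described below. In 9067 genes (63.3%) the 3 WT libraries did not overlap the 3 KO libraries.

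**Figure D1:**
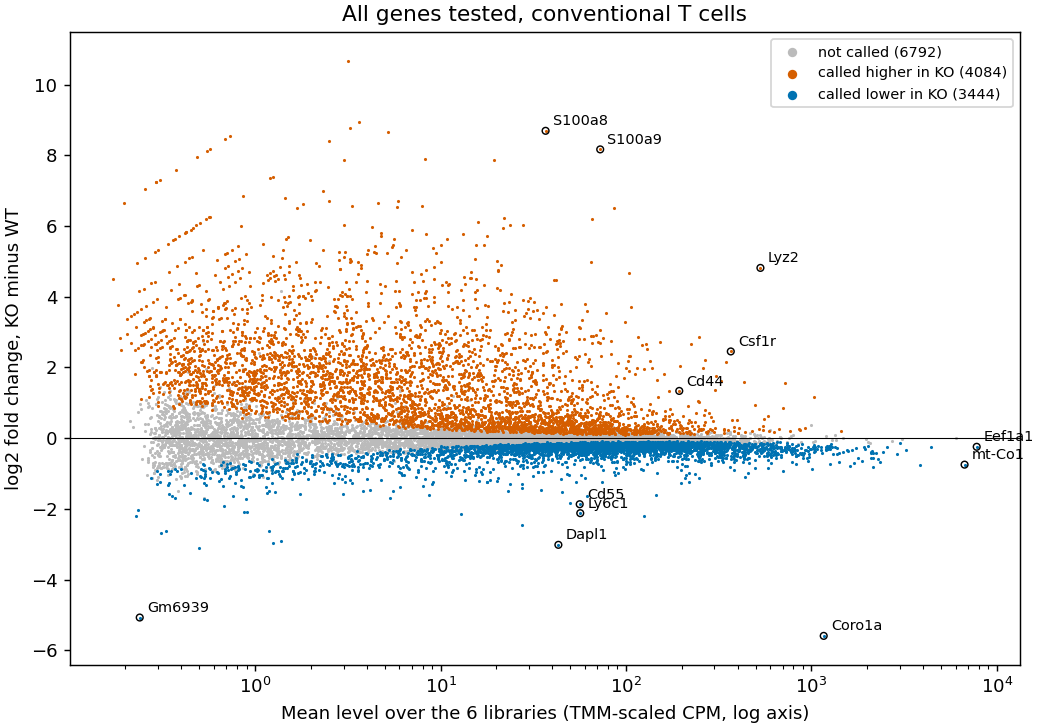
Each point is 1 of the 14320 genes tested, with its mean level over the 6 libraries on the x axis (TMM-scaled CPM, log axis) and its log2 fold change, KO minus WT, on the y axis. Genes called higher (4084) reach far up, while those called lower (3444) form a shallow band at high levels, with Coro1a and Dapl1 below it.

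The direction of change went with the level of the gene. Among 1977 genes with a mean under 1 CPM, 34.6% rose and 4.6% fell. Among 3383 genes at 1 to 10 CPM, 44.9% rose and 9.16% fell. Genes at 10 to 100 CPM were split evenly, with 25.1% rising and 25.9% falling. Above 100 CPM the order was reversed, as 10.2% of 2502 genes rose and 54.8% fell, with a median of -0.14. A gene near 0 in 1 genotype could pass the filter through the other alone. Such a gene could hardly be called in both directions, which limits the reading of the lower bins.

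**Figure D2:**
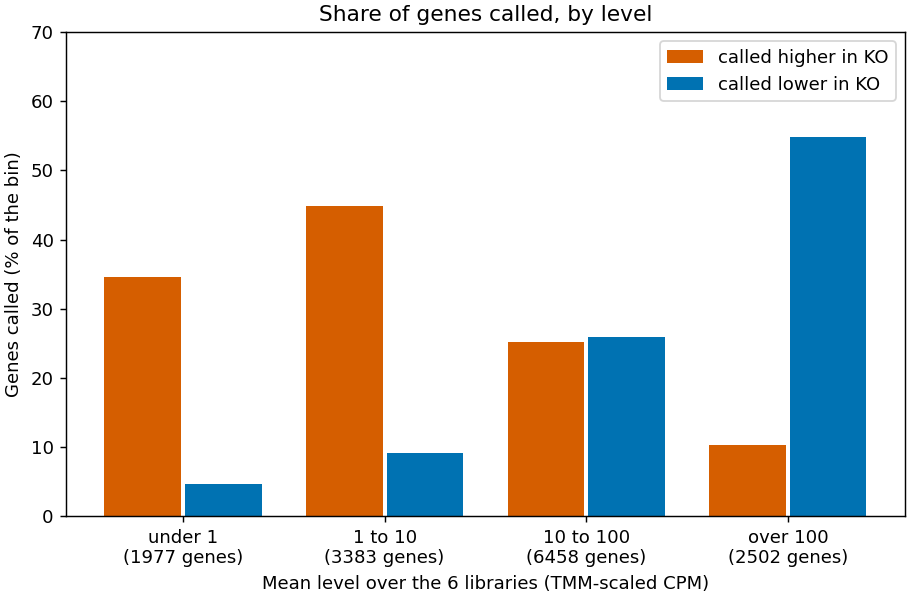
Bars give the percentage of genes called higher (orange) and lower (blue) in KO in 4 bins of mean TMM-scaled CPM, with the number of genes under each bin. The share called higher peaks at 44.9% between 1 and 10 CPM, and the share called lower reaches 54.8% above 100 CPM.

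Most of the falls did not hold once libraries were scaled to the T cell genes. Under that scaling 11023 genes (77%) were called higher and 165 (1.15%) lower. All 4084 genes that were higher under TMM stayed higher, which the upward shift made nearly certain. Of the 3444 that were lower, 165 stayed lower, 1441 were no longer called, and 1838 were called higher. At least 2-fold lower under both scalings were 36 genes. A fall in CPM is a fall relative to all RNA of the library. Relative to the T cell genes used for scaling, 165 of the falls were still called and 1838 became called rises. The 1441 no longer called are undecided, because lack of a call does not show lack of a fall. Other T cell transcripts were not used as a reference.

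The genes with the largest falls at appreciable levels are described first, since they kept their direction under both scalings and in every other setting tried. Dapl1 (chromosome 2, 59484653 to 59505020, plus strand), which encodes a small protein related to death-associated protein and marks naive T cells, was at 73.5, 74.7 and 82.6 CPM in WT. It was at 10.9, 9.90 and 7.65 CPM in KO, so that WT levels were 8.10 times those of KO (log2 fold change -3.02, SE 0.12, adjusted p = 3.26e-05). Every WT library lay above every KO library, which the rule for choosing these genes required. Cd55 (chromosome 1, 130439027 to 130462744, minus strand), the decay-accelerating factor that protects cells from complement, was at 91.3, 94.6 and 79.4 CPM in WT against 25.9, 21.7 and 25.0 CPM in KO, a log2 fold change of -1.87. With T cell gene scaling the changes of Dapl1 and Cd55 were -2.51 and -1.36. Their promoter windows, from RefSeq for GRCm38 and running from 250 bases before to 50 bases after the start, are shown because these 2 genes lead the naive gene list below. Capitals mark the core of the cyclic AMP response element, TGACG, and in Dapl1 also a forkhead motif, GTAAACA. Dapl1 spans chr2:59484403-59484702 on the plus strand and Cd55 chr1:130462695-130462994 on the minus strand.
Dapl1: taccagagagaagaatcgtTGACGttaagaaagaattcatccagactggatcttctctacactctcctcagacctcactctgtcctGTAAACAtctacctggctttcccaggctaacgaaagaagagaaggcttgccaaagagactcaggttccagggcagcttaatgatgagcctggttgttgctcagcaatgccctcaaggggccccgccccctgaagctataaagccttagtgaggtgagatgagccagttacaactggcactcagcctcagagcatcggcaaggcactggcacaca
Cd55: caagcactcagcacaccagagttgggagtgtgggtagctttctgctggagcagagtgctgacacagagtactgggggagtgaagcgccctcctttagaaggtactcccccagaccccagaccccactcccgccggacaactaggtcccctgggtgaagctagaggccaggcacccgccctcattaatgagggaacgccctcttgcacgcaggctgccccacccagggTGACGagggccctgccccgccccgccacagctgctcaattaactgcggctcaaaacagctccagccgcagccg

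Cyclic AMP response elements and forkhead motifs are bound by CREB and FOXO proteins, which have been tied to coronin 1 and to the naive state. Both strands were searched, and the core TGACG also lies inside the full element TGACGTCA. Shares are of genes with a window, and a gene was counted if any of its windows held the motif. The core was in 5 of the 8 such genes among the 10 with the lowest fold change. It was in 15 of 63 (23.8%) among genes at least 2-fold lower, and in 34.8% among all genes tested. The full element was in none of those 63 genes and in 3.49% of all. GTAAACA was in 4.76% and 3.13%, and the TCF and LEF motif CTTTGAT in 6.35% and 3.09%. These shares describe letters in a window and not binding.

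Among the other genes of the 10 lowest were surface and signalling proteins. Ly6c1, a surface protein anchored by lipid, was at 79.7, 91.5 and 105 CPM in WT compared with 22.5, 23.1 and 17.8 CPM in KO (log2 fold change -2.12, and -1.61 with T cell gene scaling). Its close copy Ly6c2 went the other way, from 14.8, 10.2 and 9.65 CPM to 59.1, 49.7 and 81.9 CPM, a rise of 2.46. Reads that fit both copies equally are left out of the counts, so both values are uncertain. H2-Ob, a subunit of the DO protein that restrains peptide loading of MHC class II, was at 80.9, 80.4 and 71.5 CPM in WT against 23.0, 20.8 and 21.9 CPM in KO (log2 fold change -1.83). The other 10 tested genes of MHC class II and its loading rose. St8sia6, which adds sialic acid to glycans, was at 223, 225 and 209 CPM in WT compared with 79.5, 75.1 and 62.3 CPM in KO (log2 fold change -1.60). In each of these genes except Ly6c2 every WT library lay above every KO library, a condition for choosing the 10 genes. F2rl1, the protease-activated receptor PAR2, fell by 1.64, Rgs11, which speeds G protein shut-off, by 1.51, and the adhesion protein gene Amigo2 by 1.52 on the log2 scale. Rnf32 and Igsf23 fell by 1.60 and 1.47. With T cell gene scaling the 10 genes kept changes of -2.51 for Dapl1 to -0.96 for Igsf23.

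**Figure D3:**
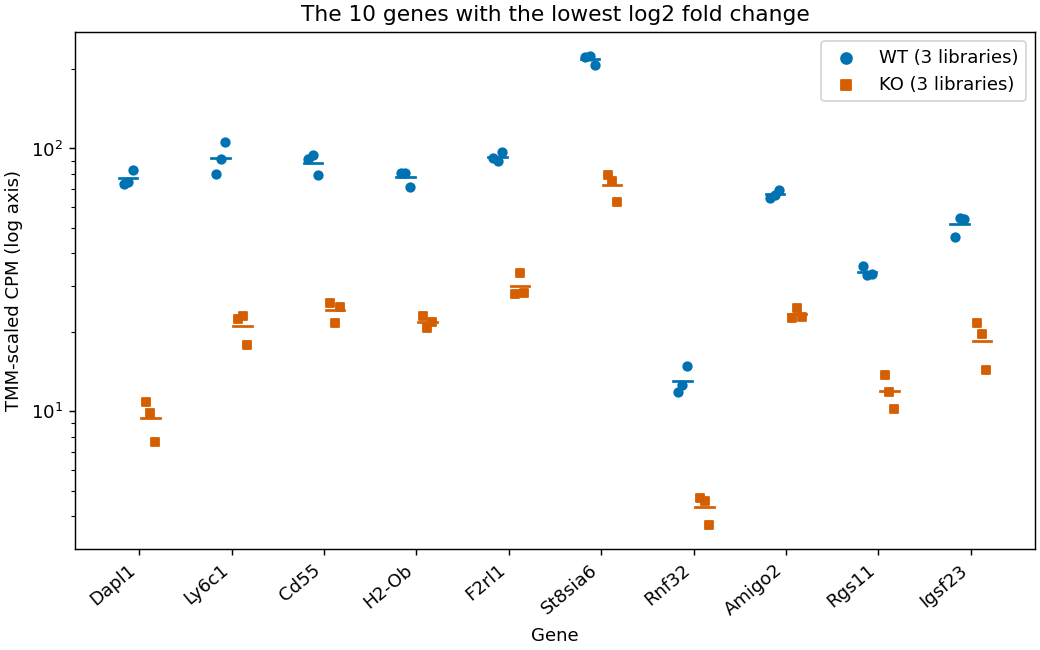
TMM-scaled CPM (log axis) of the 10 genes with the lowest log2 fold change, Coro1a left out, with 1 point per library and a line at the mean of each group. No KO library of any of the 10 genes reaches the level of a WT library, because only genes without overlap between groups were eligible.

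Predicted genes were passed over in that choice, and 3 of them are given here, picked once their values were known. Gm14085 on chromosome 2 was at 249, 189 and 182 CPM in WT against 52.3, 49.6 and 32.9 CPM in KO (log2 fold change -2.20). It lies 23803 bases beyond the nucleoside transporter gene Slc28a2, which fell by 0.64, or -0.14 with T cell gene scaling. Where these genes are alike, reads that fit both are left out of the counts. Gm15675, 1835 bases from Cd55 on the same strand, was at 52.5, 44.8 and 42.1 CPM in WT compared with 8.87, 7.92 and 8.82 CPM in KO, a fall of 2.44. Gm6939, a pseudogene 9738 bases beyond the 3′ end of Coro1a, held 43 counts over the WT libraries and 1 over the KO libraries. Of the 134 tested genes within 5 Mb of Coro1a, 32 rose and 46 fell, with a median of -0.07. That is 34.3% lower, against 24.1% of all genes, and 23.9% higher, against 28.5%.

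Genes of the naive state mostly fell under TMM scaling. With T cell gene scaling they were nearly evenly divided, while 77% of all genes tested were higher. Of 30 tested members, 23 fell, 3 rose and 4 were not called, with a median of -0.49 against -0.01 for all genes. The 3 that rose became 1 in each of the fits without replicate 1 or 2 of either group. Relative to the T cell genes the median was 0.03, with 9 members higher and 10 lower. Over all genes tested that scaling gave a median of 0.50, so a larger share of naive genes stayed lower. List counts under TMM, here and below, stand beside 28.5% higher and 24.1% lower over all genes tested. Those with T cell gene scaling stand beside 77% higher and 1.15% lower. Ccr7, the chemokine receptor for entry into lymph nodes, was at 584, 640.0 and 602 CPM in WT against 329, 313 and 276 CPM in KO (log2 fold change -0.99, and -0.48 with T cell gene scaling). Igfbp4, a binding protein of insulin-like growth factors, and Itga6, an integrin subunit of another list, fell by 1.09 and 1.00 and kept -0.58 and -0.48. Tcf7, a transcription factor of naive and memory T cells, fell by 0.70 from 2106 ± 70.6 to 1294 ± 131 CPM (SD, n = 3) and kept -0.19. Its partner Lef1 fell by 0.71 under TMM and was no longer called with T cell gene scaling (-0.20, adjusted p = 0.0882).

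Other naive genes fell only relative to total RNA. Il7r, the interleukin 7 receptor chain, was at 817, 1075 and 1232 CPM in WT against 802, 774 and 679 CPM in KO, a log2 fold change of -0.47 that turned to 0.050 with T cell gene scaling. WT replicate 1 lay next to the KO libraries, and the call was lost in the fits without WT replicate 2, WT replicate 3 or KO replicate 3, at -0.46, -0.34 and -0.40. Satb1, a chromatin organiser, changed by -0.48 and by 0.037 with T cell gene scaling, and Klf2, which drives the egress receptors, by -0.46 and 0.055. S1pr1, the receptor that lets T cells leave lymphoid organs, changed by -0.36 and by 0.15. Ccr9, a gut homing receptor on the naive list, rose from 21.8, 19.2 and 14.7 CPM to 105, 85.7 and 88.5 CPM (log2 fold change 2.33).

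Genes of cell survival went both ways. Over all genes tested 28.5% rose and 24.1% fell. In the BCL2 family 11 of 16 tested genes rose and none fell, with a median of 0.56. Pmaip1, which encodes the death-promoting protein NOXA, rose by 2.43 from 3.10 ± 0.213 to 16.8 ± 4.71 CPM (SD, n = 3), and the protective Bcl2l2 rose by 1.85. Bcl2, the survival factor of naive T cells, was at 232 ± 15.4 CPM in WT compared with 239 ± 2.15 CPM in KO and was not called (log2 fold change 0.042, or 0.56 and called with T cell gene scaling). Bcl2l11, the death-promoting BIM, was not called either, at -0.10 and 0.42. Of 8 GIMAP genes, small GTPases needed for T cell survival, 5 fell and 1 rose, with a median of -0.30, or 0.21 with T cell gene scaling. In each fit without 1 library, other than that without KO replicate 3, 0 GIMAP genes rose. Gimap3 had the largest fall of these at -0.49, but was at 0.017 with T cell gene scaling.

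Genes of the T cell receptor and its kinases showed shallow falls that T cell gene scaling turned to rises in most. Of 32 tested members, 23 fell and 3 rose, with a median of -0.29, while T cell gene scaling gave a median of 0.23, 20 higher and 1 lower. Under that scaling 77% of all genes tested were higher, with a median of 0.50. The genes used for it, among them the receptor chains Cd3d, Cd3e and Cd3g, are near 0 there by construction. The 1 that stayed lower was Cd247, the zeta chain of the receptor, at 472, 501 and 513 CPM in WT against 269, 289 and 237 CPM in KO (log2 fold change -0.90, and -0.39 with that scaling). Dgka, a kinase that dampens receptor signals, changed by -0.68 and by -0.17 with T cell gene scaling, where it was no longer called (adjusted p = 0.0509). The receptor kinase Lck changed by -0.34, and by 0.18 with T cell gene scaling. Sla, an adaptor that lowers receptor levels, rose by 0.48 from 247 ± 3.77 to 345 ± 20.3 CPM (SD, n = 3).

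Variable segments of both receptor chains fell more often than they rose under TMM scaling, while with T cell gene scaling 5 beta segments and 0 alpha segments were lower. Of 21 tested beta segments 16 fell and 1 rose, with a median of -0.54, and of 64 tested alpha segments 35 fell and 2 rose, with a median of -0.60. The alpha segments that fell numbered 17 without WT replicate 3, 20 without KO replicate 1 and 23 without WT replicate 2, and the beta segment that rose was not called without WT replicate 2, WT replicate 3 or KO replicate 2. Fold changes of single segments ran from -1.15 to 0.36 for beta and from -1.11 to 0.91 for alpha on the log2 scale. Their summed levels were 517, 535 and 544 CPM for beta in WT and 362, 400 and 355 CPM in KO. The ratio of the group means, KO over WT, was 0.70 for beta segments, 0.673 for alpha segments and 0.701 for the 6 T cell genes. With T cell gene scaling the beta and alpha medians were -0.03 and -0.09. Trbv16 fell by 0.80 from 42.1 ± 1.53 to 24.1 ± 2.45 CPM (SD, n = 3). Segments resemble one another, so reads of single segments are uncertain.

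Mitochondrially encoded genes fell, and most stayed lower with T cell gene scaling. Each of the 7 tested mitochondrially encoded genes of oxidative phosphorylation fell, with a median of -0.75, and the other 6 on the list had no counts in any library. mt-Co1, a subunit of cytochrome oxidase, was at 8095, 8539 and 8574 CPM in WT compared with 5068, 4838 and 5089 CPM in KO (log2 fold change -0.75, and -0.23 with T cell gene scaling). mt-Nd5 of complex I fell by 0.82 and kept -0.30. With that scaling 5 of the 7 stayed lower. Of 58 nuclear genes of the same complexes 9 fell and 2 rose, with a median of -0.070, and under T cell gene scaling 57 were higher. Without WT replicate 1, 19 of the 58 fell and 0 rose, and 0 or 1 rose in every other fit without 1 library except that without KO replicate 2. Mitochondrial genes held 2.25 ± 0.0971% of counts in WT and 1.49 ± 0.0432% in KO (SD, n = 3).

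Ribosomal protein genes and cholesterol genes also fell relative to total RNA, where 24.1% of all genes tested fell and 28.5% rose. Of 78 ribosomal protein genes tested, 70 fell and 1 rose, with a median of -0.29, against a median of 0.22 with T cell gene scaling (49 higher, 0 lower). Without replicate 3 of both groups 38 fell, and without WT replicate 3 alone 2 rose. Rpl12 had the lowest fold change of these, -0.64, or -0.12 with that scaling. Of 29 tested genes of cholesterol synthesis and uptake 21 fell and 2 rose, with a median of -0.27, or 0.24 with that scaling. Sqle, the squalene epoxidase, was at 28.0, 26.2 and 21.0 CPM in WT against 9.72 to 11.2 CPM in KO, a fall of 1.24 that kept -0.72 with that scaling. Srebf2, the transcription factor that drives the pathway, changed by -0.72, or -0.20 and not called with that scaling. Scd2, a fatty acid desaturase, rose by 0.97. Of 17 tested heat shock chaperones 11 fell and 2 rose, with a median of -0.29, or 0.23 with that scaling, and 1 rose without WT replicate 3, KO replicate 1 or KO replicate 3.

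The largest rises were of genes typical of other white blood cells. S100a8 and S100a9, calcium-binding proteins of neutrophils, were at 111, 57.4 and 52.1 CPM and at 218, 106 and 110 CPM in KO replicates 1 to 3. Their WT libraries held between 0.0663 and 0.834 CPM, so the log2 fold changes of 8.69 and 8.17 rest on 16 and 46 summed WT counts. Retnlg, Cxcr2, C5ar1, Ccr1 and Csf3r, genes of neutrophils and in part of other myeloid cells, followed with log2 fold changes of 6.52 for Csf3r to 7.90 for Retnlg. Lyz2, the lysozyme of myeloid cells, made the largest gain in level, from 38.5, 33.8 and 36.9 CPM in the WT libraries to 742, 659 and 1676 CPM in KO. Other large gains were of macrophage genes such as Csf1r, Vcam1, Apoe and Hmox1, which rose by 2.45, 2.15, 2.20 and 1.76.

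Most marker lists of other cell types had more members higher than lower, and the KO libraries differed in which list stood highest. The exception was the immature thymocyte list, with 1 of 7 tested genes higher and 3 lower (median -0.055, or 0.46 with T cell gene scaling). Members near 0 in WT, here and in the lists below, could pass the filter only through KO libraries and could hardly be called lower. The neutrophil list, with 16 of 19 tested genes higher and none lower, summed to 20.2 to 25.5 CPM in WT compared with 877, 443 and 479 CPM in KO replicates 1 to 3. The monocyte and macrophage list (23 of 23 higher) summed to 625 to 1047 CPM in WT against 4270, 2971 and 6252 CPM in KO. The NK cell list (22 of 22 higher) summed to 145 to 171 CPM in WT compared with 1038, 779 and 1443 CPM in KO. KO replicate 1 was thus highest for neutrophil genes and KO replicate 3 for macrophage and NK genes, while KO replicate 2 was lowest for all 3. Immunoglobulin heavy variable segments summed to 34.8 and 36.4 CPM in KO replicates 1 and 2 and to 94.5 CPM in replicate 3, with 3.34 to 9.74 CPM in WT. Dendritic cell, plasma cell, basophil, erythroid, platelet and stromal lists had median log2 fold changes of 1.30 for platelet to 2.95 for plasma cell genes. The B cell list had 18 of 20 higher and summed to 602 to 646 CPM in WT against 746 to 1067 CPM in KO, a ratio of group means of 1.39 with no overlap between the groups. Most of that sum was Ighm, the heavy chain of IgM, at 553 ± 32.7 CPM in WT compared with 560.1 ± 62.4 CPM in KO (SD, n = 3).

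**Figure D4:**
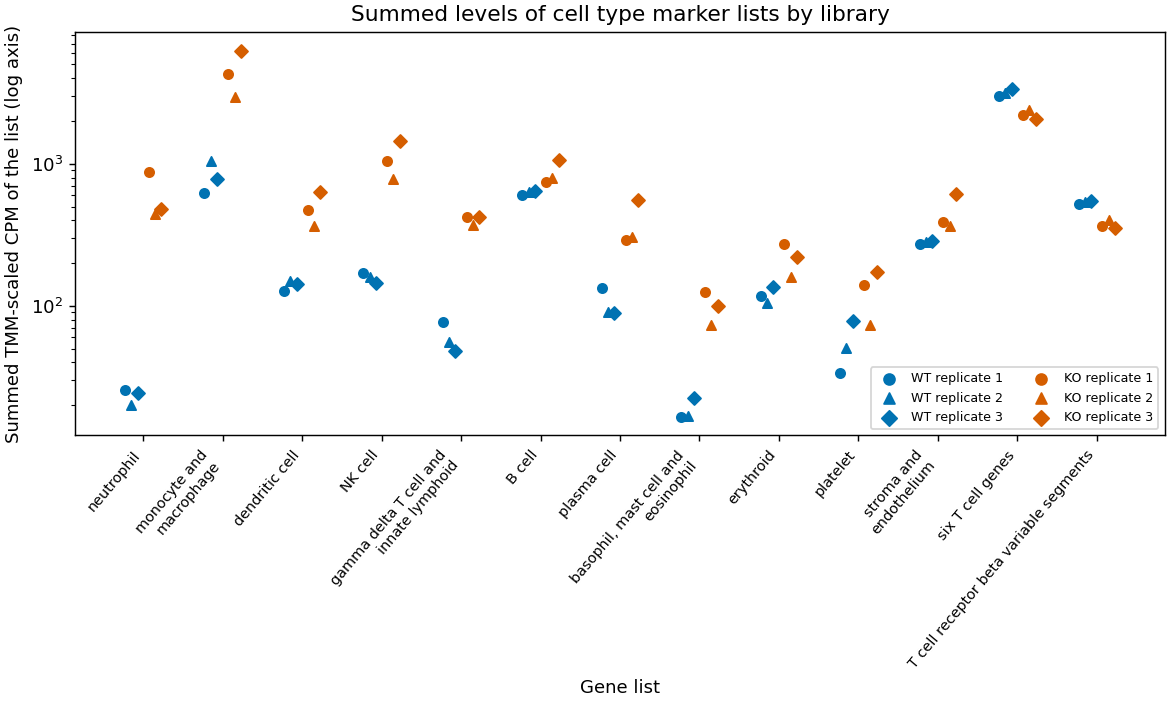
Summed TMM-scaled CPM (log axis) of marker lists of other cell types, of the 6 T cell genes and of T cell receptor beta segments, 1 point per library, with symbols for the replicate number. KO libraries lie above WT libraries for all lists of other cells shown except platelet genes, where KO replicate 2 (73.3 CPM) lies below WT replicate 3 (78.7 CPM), and below them for the T cell genes.

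Genes of effector, memory and helper T cells mostly rose in the same libraries. Of 39 tested effector and memory genes 37 rose and none fell, with a median of 1.61. Cd44, the adhesion receptor of antigen-experienced T cells, was at 121, 105 and 104 CPM in WT against 271, 240.0 and 322 CPM in KO (log2 fold change 1.34). Anxa1 and Anxa2, membrane-binding proteins also abundant in myeloid cells, rose by 3.84 and 2.82. S100a11, a relative of S100a8, rose by 1.51 and was even across KO libraries at 57.8, 59.0 and 61.6 CPM. Of 19 tested T helper 1 and cytotoxic genes 17 rose, with Gzma, a granule protease shared with NK cells, at 115, 77.1 and 182 CPM in KO, which follows the order of the NK sums. T helper 2 genes (8 of 11 higher) and T helper 17 genes (10 of 11 higher) had medians of 1.87 and 2.50. The T helper 2 list also had 2 lower, or 1 in each fit without 1 library other than WT replicate 1, and its sum was 881 to 942 CPM in WT against 944 to 984 CPM in KO. Il4, the T helper 2 cytokine, was at 3.42, 4.42 and 3.89 CPM in KO against 0.706 to 0.943 CPM in WT. Il23r, a receptor of T helper 17 and gamma delta T cells, rose by 3.73. The sums of other cell markers given above rose beside these genes, and their part in the rises was not tested.

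Many regulatory and follicular helper genes rose, and unevenly among the KO libraries. Of 27 tested regulatory T cell genes 25 rose and 1 fell, with a median of 1.21. Of 14 tested follicular helper genes 10 rose and 1 fell, with a median of 0.91, and 5 rose without replicate 3 of both groups. Their sum was 906, 1399 and 1153 CPM in KO replicates 1 to 3 against 927 to 1007 CPM in WT, so KO replicate 1 lay below every WT library. Foxp3, the transcription factor that defines regulatory T cells, was at 26.6, 20.9 and 23.1 CPM in WT compared with 30.6, 56.4 and 70.6 CPM in KO (log2 fold change 1.15, SE 0.28, adjusted p = 0.010). Without replicate 3 of both groups its call was lost, at 0.87 (adjusted p = 0.0736). Pdcd1, which encodes PD-1, was at 11.9, 7.64 and 9.91 CPM in WT against 26.9, 84.6 and 65.0 CPM in KO (log2 fold change 2.58). Il21, the follicular helper cytokine, was at 1.71 CPM in KO replicate 1, next to 1.69 CPM in WT replicate 1, and at 23.2 and 15.5 CPM in the other KO libraries. KO replicate 1, the library with the most neutrophil RNA, was the lowest of the KO libraries in all 3 genes. Ctla4, an inhibitory receptor, lay at 28.1 CPM there against 27.4 CPM in WT replicate 1, and its call (1.15) was lost without WT replicate 2 or 3, at 1.01 and 0.98. Itgae, Cd83 and Swap70, also on the regulatory list, rose by 3.05, 2.38 and 1.69 with little spread among KO libraries.

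Genes of gamma delta T cells and innate lymphoid cells rose evenly. All 15 tested members rose, with a median of 2.94, and their sum was 421, 369 and 420 CPM in KO against 48.0 to 77.1 CPM in WT. Trdc, the constant segment of the delta chain, was at 16.6, 14.5 and 12.7 CPM in WT compared with 85.0, 69.6 and 86.7 CPM in KO (log2 fold change 2.46). Sox13, a transcription factor of these cells, rose by 4.13. Genes of dividing cells rose too: 31 of 41 tested cell cycle genes were higher and 3 lower, with a median of 0.97. Top2a, the topoisomerase of chromosome segregation, was at 71.6, 74.4 and 71.0 CPM in KO against 25.9 to 32.2 CPM in WT.

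Pathways that have been linked to coronin 1 changed in both directions under TMM scaling, and mostly upward with T cell gene scaling. Of 32 tested genes of calcium entry, calcineurin and NFAT, 13 fell and 7 rose, with a median of -0.10, or 0.41 with T cell gene scaling. Rcan3, a calcineurin inhibitor, fell by 0.83, from 123, 123 and 125 CPM to 74.1, 70.7 and 63.9 CPM, and kept -0.32 with that scaling. Stim1, the calcium sensor of the endoplasmic reticulum, changed by -0.43, or 0.081 with that scaling. Of 36 tested genes of cyclic AMP synthesis, breakdown and response, 15 rose and 8 fell, with a median of 0.20. The rises were led by scarce transcripts, among them the phosphodiesterase genes Pde4a and Pde5a at 5.98 ± 1.23 and 8.77 ± 1.09 CPM in KO against 1.03 ± 0.252 and 1.86 ± 0.389 CPM in WT (SD, n = 3). Of 21 tested CREB-responsive genes 10 rose and 4 fell (median 0.31). Of 30 tested immediate early genes 15 rose and 6 fell (median 0.25), with Nr4a1 up by 0.86 and Cd69, an early activation marker that retains T cells in tissue, down by 0.98, or -0.46 with T cell gene scaling. Of all genes tested, 28.5% rose and 24.1% fell. With T cell gene scaling 32 of the cyclic AMP genes were higher and 0 lower (median 0.71). For CREB-responsive genes the counts were 20 and 0 (median 0.83), and for immediate early genes 23 and 1 (median 0.76). Of the calcium genes 27 were higher and 1 lower with that scaling, under which 77% of all genes tested were higher.

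Other coronins did not move as a family under TMM scaling, while all 5 tested were higher with T cell gene scaling (median 0.98). Coro1b was at 209, 232 and 233 CPM in WT against 305, 292 and 332 CPM in KO, a rise of 0.46. Coro2a and Coro2b, scarcer members, rose by 1.65 and 2.42. Coro1c was not called (-0.07), but was at 0.45 and called with T cell gene scaling. Coro7 changed by -0.24, or 0.27 with that scaling. Summed over the family with Coro1a, the level was 2713 to 3008 CPM in WT compared with 746 to 800 CPM in KO. Of the partners of coronin 1, the Arp2/3 complex and its activators had 7 of 22 higher and 6 lower, with a median of 0.00. These shares, 31.8% and 27.3%, lie near those of all genes tested, 28.5% and 24.1%. With T cell gene scaling 21 of the 22 were higher and 0 lower, with a median of 0.51. Genes of actin filaments had 8 of 39 higher and 22 lower, with a median of -0.21, or 0.31 with T cell gene scaling. Actn1, the actin crosslinker alpha-actinin, was at 734, 765 and 760 CPM in WT against 449, 424 and 389 CPM in KO (log2 fold change -0.84, and -0.33 with that scaling). Ezr, the membrane linker ezrin, was tight in both groups, at 527, 526 and 531 CPM in WT compared with 331, 328 and 326 CPM in KO (log2 fold change -0.69), but was not called with that scaling (-0.17). Cyfip1, an activator of the Arp2/3 complex, rose by 2.08.

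**Figure D5:**
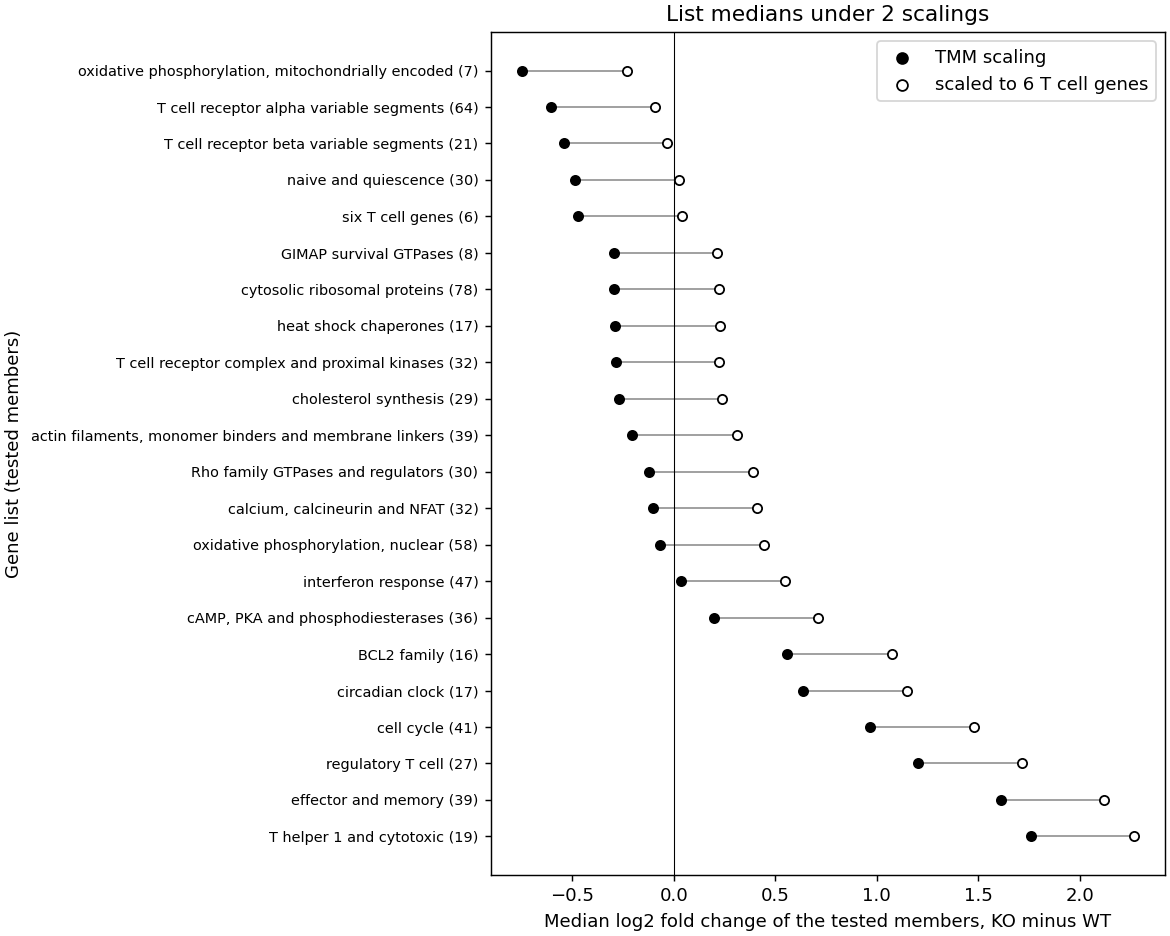
Median log2 fold change, KO minus WT, of the tested members of each list (number in brackets) under TMM scaling (filled) and T cell gene scaling (open). Every list moves right by about the shift of all genes, 0.51, so lists with a small negative median such as ribosomal proteins (-0.29) cross 0, while mitochondrially encoded genes (-0.75 and -0.23) do not.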

How the data were processed

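Polyadenylated RNA was sequenced with a stranded kit, per the labels. What the authors deposited is a table of raw counts per Ensembl gene ID. Mapping used STAR and the GRCm38 genome, which the submitters' processing notes name. The annotation release is not given in the sources used here. Reads mapping to several places and reads outside genes have tallies of their own, which were left out. Symbols were matched for 45143 of 45706 IDs through GENCODE and RefSeq tables. Promoter windows came from RefSeq.

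The 6 conventional libraries were fitted in R 4.3.3 with edgeR 4.0.16 (filterByExpr, minimum count 10 and minimum total 15, TMM factors, two-sided quasi-likelihood F test, Benjamini-Hochberg over all genes tested, threshold 0.05). The SE of a log2 fold change was taken from its size and the square root of the F statistic. Fitted fold changes include edgeR's prior count. T cell gene scaling replaced TMM by factors from Cd3d, Cd3e, Cd3g, Cd5, Cd6 and Lat, whose scaled values are near 0 by construction. Figures were drawn with Python 3.11.15 and matplotlib 3.10.9. The procedure was tested on simulated data.

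The comparison, the 56 gene lists and the rules were chosen with earlier results of these data known. No list was tested as a set, and a list is described by its counts and its median. The rule names Coro1a, the 10 highest and the 10 lowest log2 fold changes among called genes with at least 10 CPM in the higher group, no overlap and more than 3 summed counts in each group, the 10 largest gains and losses of CPM, the 10 lowest under T cell gene scaling among genes lower under both scalings with at least 5 CPM in WT, the 10 highest WT means, and up to 3 members per list. Predicted genes were passed over. Not all are printed, and 1 gene chosen earlier is not reported here. Outside the rule, and chosen after their values were seen, are Lef1, Igfbp4, Il7r, Satb1, Lck, Bcl2, Bcl2l11, Cd44, Cd8a, Foxp3, Ctla4, Pdcd1, Il21, Cd69, Nr4a1, Trdc, Ighm, Ly6c2, Slc28a2, Coro1c, Coro7, Gm14085, Gm15675 and Gm6939.

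Alternatives were RLE and upper-quartile factors, T cell gene scaling, DESeq2 1.42.0, limma-voom (limma 3.58.1), no filter, a mean of at least 5 CPM, a 1.5-fold minimum, a threshold of 0.01, a joint fit of all 12 libraries, a block for the replicate number, and fits that leave out each library in turn. Leaving out replicate 3 of both groups was chosen after seeing the data.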

Additional observations from a re-analysis of the deposited data

How the results depend on the processing

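With DESeq2 or limma-voom, RLE or upper-quartile factors, all 12 libraries, or no filter, between 6971 and 7749 genes were called, and Coro1a stayed lower in every setting. With all 12 libraries 3706 were higher and 4043 lower. T cell gene scaling called 11023 genes higher, 165 lower and 36 at least 2-fold lower. It turned Il7r to 0.050, Coro7 to 0.27, Satb1 to 0.037, Bcl2l11 to 0.42, S1pr1 to 0.15, Lck to 0.18, Coro1c to 0.45, Gimap3 to 0.017, Stim1 to 0.081 and Klf2 to 0.055. Testing only genes with a mean of at least 5 CPM, which are fewer, gave 2697 higher, 916 at least 2-fold higher and 46 at least 2-fold lower. A threshold of 0.01 left 2113 lower. A 1.5-fold minimum left 2270 called, 2116 higher and 154 lower, with 89 at least 2-fold lower. Leaving out 1 library gave 6188 to 7175 called, and without replicate 3 of both groups 5593 were called.

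Uncalled values near 0 changed sign: Bcl2 to -0.033 with all 12 libraries and to -0.023 without WT replicate 2 (the highest value with 1 library left out was 0.070), and Bcl2l11 to 0.015 without replicate 3 of both groups. For Bcl2 and Bcl2l11 the cause was not tested. The call of Il21 was lost with limma-voom, at 3.06 (adjusted p = 0.169).

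Same-numbered libraries did not deviate together (correlations of -0.17, -0.16 and 0.07), so the numbers were not taken as a pairing. With the replicate number as a block 6506 genes were called, 6449 of them also called without it, 23 alpha segments fell, and the calls of Il7r and Il21 were lost, at adjusted p = 0.0610 and 0.0505.

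Depth limits the fold of genes near 0 in 1 group: the rise of Retnlg rests on 6 WT counts and the fall of Gm6939 on 1 KO count.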

Other observations

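Some kinds of transcript had lower medians than protein-coding genes, whose median log2 fold change was 0.00 over 12315 tested. Of 79 tested small nucleolar RNAs, 30 fell and 1 rose, with a median of -0.62. Of 306 tested processed pseudogenes, 22 fell and 10 rose, with a median of -0.21. These shares, 7.19% lower and 3.27% higher, lie below those over all genes (24.1% and 28.5%). Reads that fit a pseudogene and its parent gene equally are left out of the counts, so levels of pseudogenes are uncertain.

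Clock genes were higher more often than lower, where 28.5% of all genes tested rose and 24.1% fell. Of 17 tested, 13 rose and 2 fell, with a median of 0.64, and 1 fell without WT replicate 2 or KO replicate 2. Nr1d1, the repressor REV-ERB alpha, was at 6.33, 5.33 and 4.55 CPM in WT against 15.1, 13.6 and 13.2 CPM in KO. The labels give no time of collection. Most interferon response genes were not called: 11 of 47 rose and 6 fell, with a median of 0.034, and Oas1a, an antiviral sensor, rose by 1.47 while Ifit2 fell by 0.56, or -0.04 with T cell gene scaling.

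Gad1-ps, a pseudogene on chromosome 10, was among the 10 highest fold changes, at 0.166, 0.0325 and 0.160 CPM in WT compared with 13.5, 8.43 and 12.5 CPM in KO. Ace, the angiotensin-converting enzyme, was at 94.3, 102 and 194 CPM in KO against 1.51 to 2.09 CPM in WT.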
